A study of Mus musculus with 12 samples.

Results

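The genes described here are 9 transcription factor genes of male germ cells. They are 5 of the regulatory factor X (RFX) family, Rfx1, Rfx2, Rfx3, Rfx4 and Rfx8, 3 of the SRY-related SOX family, Sox5, Sox6 and Sox30, and Spz1, which encodes spermatogenic zip protein. The rule names them by gene symbol and uses no expression value, but it was written with earlier results of these data known. All 9 were found among the 21429 gene symbols of both count tables, and all 9 passed the filter on low counts in every comparison.

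RFX proteins share a winged-helix domain that binds the X-box, an imperfect inverted repeat found before many genes of cilia and flagella. RFX2 is required in mice for round spermatids to form a flagellum, and RFX3 for motile and nodal cilia. SOX proteins bind DNA through a high-mobility-group box. SOX30 is required in mice for spermatids to pass the round stage, and SOX5 and SOX6 are close relatives best known from cartilage, each with forms made in the testis. SPZ1 is a basic helix-loop-helix leucine zipper protein of spermatogenic cells.

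RNA came from round spermatids (RS), the haploid cells formed by meiosis, and from pachytene spermatocytes (PS), the meiotic cells that precede them. Knockout (KO) mice were Stra8-cre/Hdac3fl/-, with 1 floxed and 1 null allele of Hdac3, which encodes a histone deacetylase of nuclear receptor corepressors, and with Cre recombinase driven in germ cells before meiosis. Control mice were Hdac3fl/+, with 1 floxed and 1 normal allele. Their labels call them wild type and name no Cre transgene, so effects of the transgene and of the deletion cannot be told apart. There were 3 libraries in each of 4 groups (KO RS, control RS, KO PS, control PS), and the sources used here state neither the animals' ages nor how the cells were isolated.

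Total gene counts were 11205732 to 17467583 per library. Hdac3 itself was at 13.7 to 19.5 CPM (reads of the gene relative to all counted reads) in KO RS, against 38.9 to 49.7 CPM in control RS, and at 17.4 to 26.3 CPM in KO PS, against 51.5 to 88.9 CPM in control PS. In each group 1 library, called the remaining replicate because its column matches the group and no single sample title, was the shallowest. In PS it also had the highest summed level of 15 Sertoli cell markers, at 2018 CPM in KO and 1459 CPM in control, against 556 to 1021 CPM in the other 4 PS libraries. The summed level of 15 spermatocyte markers was 5232 to 6422 CPM in PS libraries and 2571 to 3789 CPM in RS libraries, and that of 16 spermatid markers was 12178 to 29527 CPM in RS libraries and 2956 to 7470 CPM in PS libraries. The labelled cell types therefore carried their own markers, and each also held RNA of the other type's markers.

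The 9 genes lie on 9 chromosomes (GENCODE, GRCm38, which is mm10). Rfx1 is at chr8:84066834-84096992, Rfx2 at chr17:56775897-56831013, Rfx3 at chr19:27761721-28011166, Rfx4 at chr10:84756062-84906538 and Rfx8 at chr1:39665301-39720997. Sox5 is at chr6:143828425-144781977, Sox6 at chr7:115470872-116038796, Sox30 at chr11:45980310-46017994 and Spz1, a gene of 1 exon, at chr13:92574636-92576172. Exons of Sox5 share 1330 bases with the antisense gene Sox5os1, and those of Rfx1 share 42 bases with C330011M18Rik. The kit was stranded, but no source used here states whether the counting used strand, so sense and antisense reads of these genes cannot be told apart.

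Because RFX proteins bind the X-box, the promoters of the 9 genes were searched for it in RefSeq windows of 250 bases before to 50 bases after each start (GRCm38.p6), on both strands. All 9 genes matched, with 15 windows in all. The X-box arm GTTGCC occurred in windows of 5 of the 9 genes, Rfx1, Rfx2, Rfx3, Sox5 and Spz1, and in 5 of the 15 windows, against 12.5% of all 32851 windows. The arm lies before the start in the windows of Sox5, Spz1 and Rfx2, and after it in those of Rfx1 and Rfx3. The share of all windows with the arm before the start was not counted. Stretches of 60 bases ending at or before the start are shown 5′ to 3′ on the minus strand, with the arm, in either orientation, in capitals:
Sox5 chr6:143947107-143947166: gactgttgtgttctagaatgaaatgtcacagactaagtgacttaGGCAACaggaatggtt
Spz1 chr13:92576233-92576292: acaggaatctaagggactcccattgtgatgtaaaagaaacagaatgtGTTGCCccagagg
Rfx2 chr17:56831092-56831151: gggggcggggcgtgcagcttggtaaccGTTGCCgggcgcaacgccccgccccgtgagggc

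The Sox5 window lies within the annotated span of the gene and not at its outermost start. The full X-box, an inverted repeat that overlaps this arm, was in 0.451% of all windows and in none of the 9 genes. A looser form of it, with the 5′ arm left more open, was in 1.29% of all windows and also in none of the 9. A shorter pattern with a changed 3′ arm was in 1.53% of all windows and in none of the 9. The full X-box cannot match that shorter pattern, so its share is not that of a looser X-box. The looser arm GTTNCCNNG was in windows of 6 of the 9 genes, in 7 of their 15 windows and in 16.6% of all windows. GTTGCCATG was in none of the 9 and in 0.773% of all windows. The SOX letters ATTGTT were in a window of Sox6 alone among the 9 and in 10.7% of all windows. The cyclic AMP response element TGACGTCA was in none of the 9 and in 1.79%. For MYB factors, AACTGNC was in a window of Rfx4 and in 12.8% of all windows, and CCGTTA in a window of Rfx8 and in 2.76%. CCAAT was in windows of 5 of the 9 genes, in 7 of their 15 windows and in 37.4% of all windows. These matches describe the letters of the windows and no measured binding.

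Levels were first compared between genes per kilobase of exon. In KO RS, Spz1 stood highest at 663 ± 223 CPM per kb (SD, n = 3), against 809.6 ± 93.0 CPM per kb in control RS. Rfx2 came next at 80.8 ± 17.3 CPM per kb in KO RS and 78.9 ± 13.3 CPM per kb in control RS. Sox30 followed at 58.9 ± 1.83 CPM per kb in KO RS, where its range overlapped that of Rfx8, and at 72.2 ± 6.09 CPM per kb in control RS, where it overlapped that of Rfx2. Below them the order in both RS groups was Rfx8, Rfx1, Rfx4, Sox5, Sox6 and Rfx3, with no overlap between neighbours. The lowest, Rfx3, was at 5.09 ± 0.355 CPM per kb in KO RS and 5.65 ± 0.667 CPM per kb in control RS.

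In spermatocytes the order differed. Rfx2 was highest in KO PS at 86.6 ± 7.20 CPM per kb, with a range that overlapped that of Spz1 at 61.3 ± 24.4 CPM per kb. In control PS, Spz1 was highest at 167 ± 40.7 CPM per kb, above Rfx2 at 79.2 ± 6.33 CPM per kb. Rfx8, Sox30 and Rfx4 followed in both PS groups, then Rfx1, Sox6, Sox5 and Rfx3. The last was at 1.33 ± 0.226 CPM per kb in KO PS and 1.96 ± 0.114 CPM per kb in control PS. Rfx1 and Sox6 overlapped in KO PS, and Rfx8 and Sox30 in control PS.

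**Figure D1:**
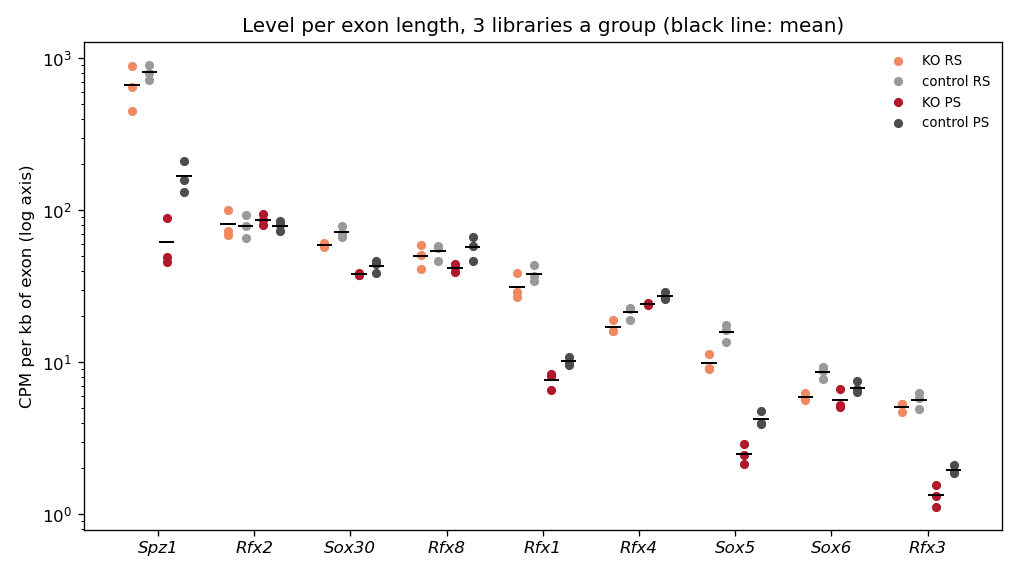
Level of each gene in CPM per kb of exon (log axis), with 1 point per library, 3 libraries a group and a black line at the mean. Spz1 averages 809.6 CPM per kb in control RS and Rfx3 averages 1.33 CPM per kb in KO PS, while the ranges of the 4 groups of Rfx2 overlap.

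The first comparison set control RS against control PS, to show how each gene differs between spermatids and spermatocytes when Hdac3 is present. Tests were edgeR's quasi-likelihood test on the counts after TMM scaling, with p-values adjusted over all genes tested by the Benjamini-Hochberg method. Fold changes are on that scale, and CPM values use the library total alone. Of the 9 genes, 6 were higher in RS (Rfx1, Rfx3, Sox5, Sox6, Sox30 and Spz1) and 0 lower, where 27.8% of all genes tested were higher and 30.9% lower (edgeR, adjusted p under 0.05). The median log2 fold change was 0.88 for the 9 genes and -0.09 for all genes. These are bulk libraries, so fewer cells of a type and less RNA per cell cannot be told apart.

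Spz1 differed most. Control RS libraries held 1110.3, 1395 and 1228 CPM, and control PS libraries held 203, 241 and 325 CPM. Every RS library was thus above every PS library, and the log2 fold change was 2.43 (SE 0.262, adjusted p = 3.14e-06, edgeR). Rfx1, the broadly expressed founding member of its family, was at 281, 221 and 236 CPM in control RS and at 64.3, 69.8 and 61.3 CPM in control PS. Its groups were also apart (2.05, SE 0.194, adjusted p = 1.08e-06, edgeR). Sox5 was at 195, 254 and 234 CPM in control RS and at 56.9, 68.6 and 56.4 CPM in control PS. Its log2 fold change was 2.04 (SE 0.176, adjusted p = 5.77e-07, edgeR), close to that of Rfx1.

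Rfx3 was at 68.6, 64.2 and 54.2 CPM in control RS, against 23.1, 21.2 and 20.7 CPM in control PS (log2 fold change 1.66, SE 0.183, adjusted p = 3.83e-06, edgeR). Sox30 was at 213, 200.2 and 236 CPM in control RS, against 116, 139 and 132 CPM in control PS (0.88, SE 0.133, adjusted p = 5.81e-05, edgeR). Sox6 was at 138, 115 and 130.0 CPM in control RS, against 111, 98.2 and 93.7 CPM in control PS. Both of these SOX genes were above PS in every RS library, but the difference for Sox6 was small at 0.47 (SE 0.170, adjusted p = 0.0282, edgeR). The call for Sox6 was lost without control PS replicate 3 or control RS replicate 1 (highest adjusted p = 0.0713, edgeR), with library size as the only scaling (adjusted p = 0.0518, edgeR) and without the remaining replicate of every group (adjusted p = 0.0949, edgeR).

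The other 3 genes showed no called difference between the cell types. Rfx2 was at 674, 479 and 576 CPM in control RS and 623, 583 and 531 CPM in control PS, with overlapping groups (log2 fold change 0.12, SE 0.202, adjusted p = 0.627, edgeR). Rfx8 was at 121, 123 and 99.3 CPM in control RS and 142, 124 and 98.8 CPM in control PS (0.04, SE 0.204, adjusted p = 0.874, edgeR). Rfx4, known from the development of the brain and with forms made in the testis, was at 105, 89.3 and 107 CPM in control RS, against 136, 126 and 123 CPM in control PS. Its RS libraries were all below its PS libraries, but the difference of -0.23 (SE 0.154) did not pass (adjusted p = 0.223, edgeR) except with library size as the only scaling (-0.35, adjusted p = 0.0263, edgeR). Over all genes, groups did not overlap with RS higher in 26.8% and with RS lower in 37.6%.

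**Figure D2:**
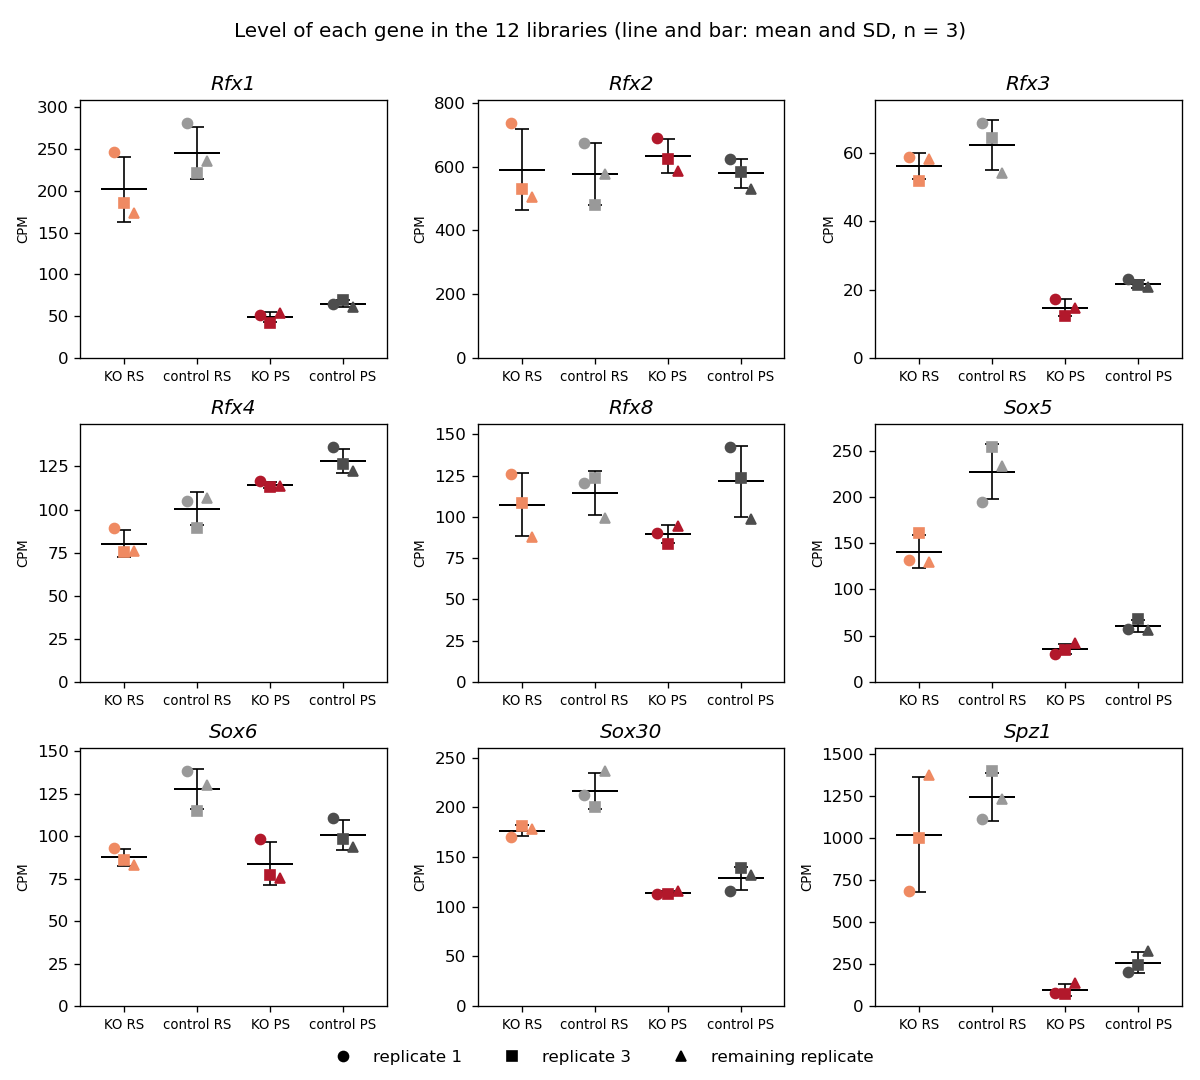
CPM of each gene in the 12 libraries, with 1 panel per gene, 1 symbol per replicate, and a line and bar for the mean and SD of the 3 libraries of a group (vertical axes start at 0 and differ between panels). Sox5, Sox6 and Sox30 in KO RS lie below every control RS library, and Spz1 in KO PS lies below every control PS library.

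The second comparison asked how the genes differ between KO RS and control RS. Sox5, Sox6, Sox30 and Rfx4 fell in KO RS, making 4 of the 9 lower and 0 higher, where 12.4% of all genes tested were lower and 18.7% higher (edgeR, adjusted p under 0.05). With the replicate number as a block, 8 of the 9 were lower, all but Rfx2, where 26.1% of all genes were lower and 28.8% higher. The median log2 fold change was -0.55 for the 9 genes and 0.02 for all genes. DESeq2 called 6 of the 9 lower, where it called 2527 of 15934 genes lower and 2989 higher. The authors' deposited table gave 7 of the 9 an adjusted p under 0.05, and its share over all genes was not computed.

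Sox5 and Sox6 had the 2 largest fold changes of the 9 in RS. Sox5 was at 132, 161 and 129 CPM in KO RS, against 195, 254 and 234 CPM in control RS. All KO libraries were below all control libraries, and the log2 fold change was -0.96 (SE 0.186, adjusted p = 0.00704, edgeR). Sox6 was at 93.1, 86.1 and 83.3 CPM in KO RS, against 138, 115 and 130.0 CPM in control RS. Its groups did not overlap either (-0.80, SE 0.168, adjusted p = 0.00923, edgeR).

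Sox30 was at 170.3, 181 and 178 CPM in KO RS, against 213, 200.2 and 236 CPM in control RS. It was lower in every KO library by a smaller margin (-0.55, SE 0.157, adjusted p = 0.0257, edgeR). The groups of these 3 SOX genes did not overlap, while 11.4% of all genes had every KO RS library below every control RS library. The call for Sox5 held in each of the 6 fits that left out 1 library (highest adjusted p = 0.0432, edgeR). That for Sox6 was lost without the remaining KO RS replicate (adjusted p = 0.0530, edgeR), and that for Sox30 without KO RS replicate 3, control RS replicate 3 or either remaining RS replicate (highest adjusted p = 0.0955, edgeR).

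Among the RFX genes, Rfx4 alone passed in RS by edgeR with all 6 libraries and no block. It was at 89.5, 75.4 and 75.9 CPM in KO RS, against 105, 89.3 and 107 CPM in control RS, so that 1 KO library lay level with the lowest control library. The log2 fold change was -0.57 (SE 0.176, adjusted p = 0.0341, edgeR), and the call held in only 1 of the 6 fits that left out a library, the one without KO RS replicate 1 (highest adjusted p = 0.133, edgeR). Rfx1 was at 247, 186 and 173 CPM in KO RS and 281, 221 and 236 CPM in control RS, with overlapping groups. It was at -0.53 on the log2 scale (SE 0.210, adjusted p = 0.0771 without the block and 0.00329 with it, edgeR). Rfx1 passed by DESeq2 (adjusted p = 0.0464) and, without KO RS replicate 1, by edgeR at -0.78 (adjusted p = 0.0118).

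Rfx3 was at 58.7, 51.7 and 58.1 CPM in KO RS and 68.6, 64.2 and 54.2 CPM in control RS (-0.41, SE 0.178, adjusted p = 0.0988 without the block and 0.0197 with it, edgeR). Rfx8 was at 126, 108 and 88.0 CPM in KO RS and 121, 123 and 99.3 CPM in control RS (-0.35, SE 0.209, adjusted p = 0.217 without the block and 0.0335 with it, edgeR). Both pairs of groups overlapped. Rfx2 was at 736, 531 and 504 CPM in KO RS and 674, 479 and 576 CPM in control RS, and did not pass in any setting run (log2 fold change -0.21, SE 0.223, adjusted p = 0.481, edgeR).

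Spz1 was the most spread of the 9 in KO RS, at 687, 999 and 1372 CPM, against 1110.3, 1395 and 1228 CPM in control RS. The KO values ran from the lowest of the 6 libraries almost to the highest. The log2 fold change was -0.57 (SE 0.234, adjusted p = 0.0863 without the block and 0.00913 with it, edgeR). Spz1 also passed by DESeq2, at -0.61 (adjusted p = 0.0463). The same libraries differed in the summed level of the 16 spermatid markers, at 12178, 23443 and 26872 CPM in KO RS and 17302, 29527 and 21531 CPM in control RS. Of these markers, 3 fell in KO RS and 0 rose by edgeR without the block, where 12.4% of all genes were lower and 18.7% higher. None of the 16 was at 0 in any library. With the block 11 fell and 0 rose, where 26.1% of all genes were lower and 28.8% higher. DESeq2 called 5 lower and 0 higher. The part of this in the Spz1 values was not tested.

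Markers of other cells were also compared between KO RS and control RS. The summed level of 9 macrophage markers was 202 to 303 CPM in KO RS and 68.8 to 79.9 CPM in control RS. That of the 15 spermatocyte markers was 3254 to 3789 CPM in KO RS and 2571 to 3021 CPM in control RS. The Sertoli sum was 85.3 to 439 CPM in KO RS and 63.0 to 113 CPM in control RS, with Fshr at 0 in control RS replicate 1. The Leydig sum of 9 markers was 25.0 to 193 CPM in KO RS and 19.8 to 63.4 CPM in control RS, with Insl3 at 0 in KO RS replicate 1. The Sertoli and Leydig sums thus overlapped between the groups. By edgeR without the block, 8 of 9 macrophage, 2 of 15 spermatocyte and 9 of 14 spermatogonial markers rose. Of the Sertoli markers 3 of 11 tested rose, and of the Leydig markers 1 of 9. In each of these lists 0 fell, where 18.7% of all genes were higher and 12.4% lower. The part of these cells in the fold changes was not tested.

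Scaling bears on every value of this comparison. With library size in place of TMM, the median log2 fold change of all genes in RS was 0.27 in place of 0.02, and 84.5% of calls were higher in place of 60.2%. Under it the 9 genes ran from -0.69 for Sox5 to 0.04 for Rfx2, whose direction thus turned, and Sox5 and Sox6 alone were called. Rfx4 was then at -0.32 (adjusted p = 0.141) and Sox30 at -0.29 (adjusted p = 0.142, edgeR). Without the remaining replicate of every group, a fit added after the data were seen, Sox5 was at -0.89 (adjusted p = 0.127) and Sox6 at -0.75 (adjusted p = 0.146, edgeR). In that fit 0 of all genes passed in RS by edgeR, with 4103 at an unadjusted p under 0.05, and DESeq2 was not run on it.

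**Figure D3:**
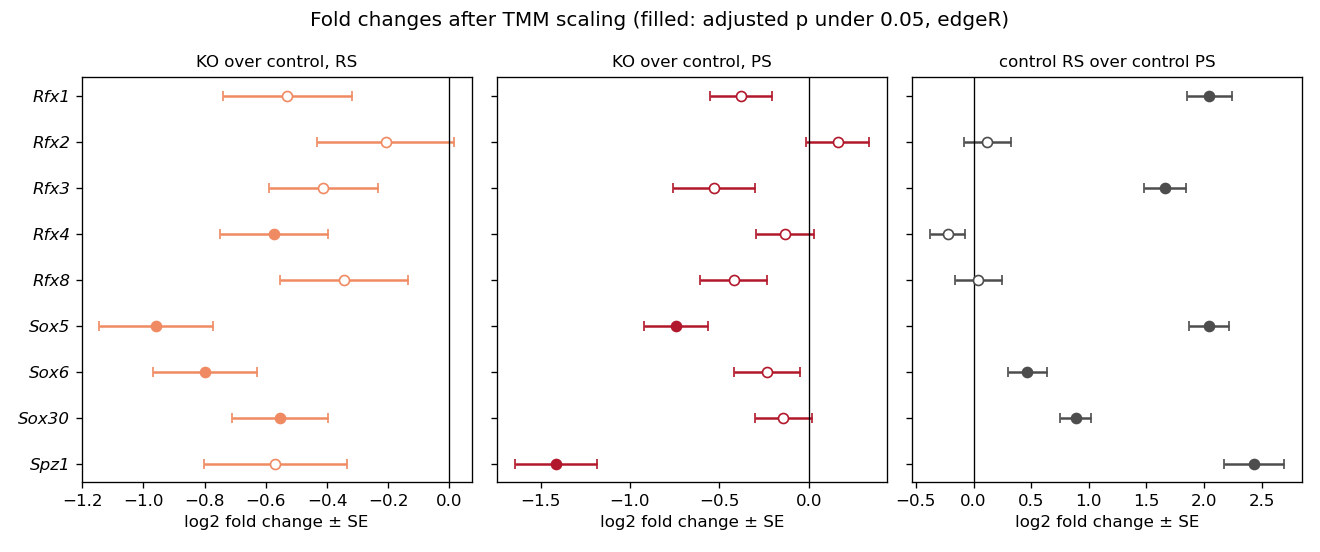
Log2 fold change ± SE of each gene after TMM scaling in KO over control RS, KO over control PS, and control RS over control PS, with filled points for an adjusted p under 0.05 (edgeR, without the replicate block). In RS all 9 points lie below 0, from -0.96 for Sox5 to -0.21 for Rfx2, whose sign turns with library size as the only scaling.

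The third comparison set KO PS against control PS. Spz1 and Sox5 fell in KO PS, making 2 of the 9 lower and 0 higher, where 4.5% of all genes tested were lower and 0.91% higher (edgeR, adjusted p under 0.05). With the replicate block, 4 of the 9 were lower, with Rfx3 and Rfx8 added, where 12.1% of all genes were lower and 10.6% higher. The median log2 fold change was -0.38 for the 9 genes and 0.06 for all genes. The authors' deposited table gave Spz1 and Sox5 an adjusted p under 0.05, and its share over all genes was not computed.

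Spz1 was at 75.8, 69.6 and 137 CPM in KO PS, against 203, 241 and 325 CPM in control PS. The highest KO library was below the lowest control library, and the remaining replicate was the highest of both groups. The log2 fold change was -1.42 (SE 0.229, adjusted p = 0.00592, edgeR), and the call held in all 6 fits that left out 1 library (highest adjusted p = 0.0293, edgeR). Sox5 was at 30.5, 34.9 and 41.6 CPM in KO PS, against 56.9, 68.6 and 56.4 CPM in control PS. Its groups were apart as well (-0.74, SE 0.180, adjusted p = 0.0294, edgeR), but the call was lost without replicate 1 or 3 of either group (highest adjusted p = 0.161, edgeR). Without the remaining replicates both passed, Spz1 at -1.63 (adjusted p = 0.0152) and Sox5 at -0.96 (adjusted p = 0.0283, edgeR).

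Rfx3 was at 17.2, 12.2 and 14.6 CPM in KO PS, against 23.1, 21.2 and 20.7 CPM in control PS. Every KO library was below every control library (log2 fold change -0.53, SE 0.228, adjusted p = 0.202 without the block and 0.0303 with it, edgeR). Rfx8 was at 90.5, 83.8 and 94.5 CPM in KO PS, against 142, 124 and 98.8 CPM in control PS, also apart (-0.42, SE 0.188, adjusted p = 0.224 without the block and 0.0422 with it, edgeR). Without the remaining control PS replicate, which was the lowest control, Rfx8 was at -0.62 (adjusted p = 0.0334, edgeR). Rfx1 was at 51.7, 42.0 and 53.9 CPM in KO PS, against 64.3, 69.8 and 61.3 CPM in control PS (-0.38, SE 0.173, adjusted p = 0.234, edgeR).

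Rfx4 was at 116, 113 and 114 CPM in KO PS, against 136, 126 and 123 CPM in control PS, a small gap between groups that did not overlap (-0.14, SE 0.162, adjusted p = 0.686, edgeR). In all, 6 of the 9 genes had every KO PS library below every control PS library, namely Rfx1, Rfx3, Rfx4, Rfx8, Sox5 and Spz1, where 16.0% of all genes did. Sox6, Sox30 and Rfx2 overlapped. Sox6 was at 98.4, 77.2 and 75.5 CPM in KO PS and 111, 98.2 and 93.7 CPM in control PS (-0.23, SE 0.186, adjusted p = 0.517, edgeR). Sox30 was at 113, 113 and 116 CPM in KO PS and 116, 139 and 132 CPM in control PS (-0.14, SE 0.158, adjusted p = 0.661, edgeR). Rfx2 was at 689, 625 and 585 CPM in KO PS and 623, 583 and 531 CPM in control PS (0.16, SE 0.175, adjusted p = 0.653, edgeR), and it alone of the 9 had a positive fold change.

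Spermatid markers moved with these genes in PS. Of the 16 spermatid markers, 13 fell and 0 rose by edgeR without the block, where 4.5% of all genes were lower and 0.91% higher. None was at 0 in any library, and their summed level was 2956 to 4238 CPM in KO PS and 4740 to 7470 CPM in control PS. For scale, the PS level of a gene can be set as a percent of its RS level in the same genotype. For Spz1 it was 9.25% in KO and 20.6% in control. For the markers Akap4 and Odf1, of the sperm tail, it was 9.23% and 8.89% in KO, against 19.2% and 22.2% in control. The markers differed among themselves. For Odf2 and Prm2, the 2 most abundant, it was 52.2% and 4.14% in KO, against 56.0% and 15.9% in control. For Sox5 it was 25.3% in KO and 26.7% in control, and for Rfx1 24.4% in KO and 26.5% in control. For Acrv1, an acrosomal protein gene, it was 23.2% in KO and 25.3% in control. The marker Spaca1 went the other way, at 24.9% in KO and 23.4% in control.

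The other genes were at a larger share of their RS level. Rfx3 was at 26.1% in KO and 34.7% in control, Sox30 at 64.5% in KO and 59.5% in control, and Sox6 at 95.7% in KO and 79.0% in control. Rfx8 was at 83.4% in KO and 106% in control, Rfx2 at 107% in KO and 100.4% in control, and Rfx4 at 142% in KO and 128% in control. Of 10 peritubular markers, 3 were lower and 0 higher in PS by edgeR without the block. Over all genes 4.5% were lower and 0.91% higher. With the block 5 were lower and 1 higher, where 12.1% of all genes were lower and 10.6% higher. DESeq2 called 3 lower and 1 higher. Their summed level was 44.4 to 73.1 CPM in KO PS and 79.2 to 167 CPM in control PS. Actg2 was the most abundant, averaging 24.0 CPM in KO PS and 56.2 CPM in control PS. Pdgfra went the other way, at 12.7 CPM in KO PS and 6.85 CPM in control PS. Of the Sertoli markers 0 of 14 tested passed in PS by DESeq2, or by edgeR without the block, with 5 higher at an unadjusted p under 0.05. With the block 12 were higher and 0 lower, where 10.6% of all genes were higher and 12.1% lower. The Sertoli sum was 937 to 2018 CPM in KO PS and 556 to 1459 CPM in control PS. The part of spermatid RNA, or of these cells, in the PS values of the 9 genes was not tested.

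**Figure D4:**
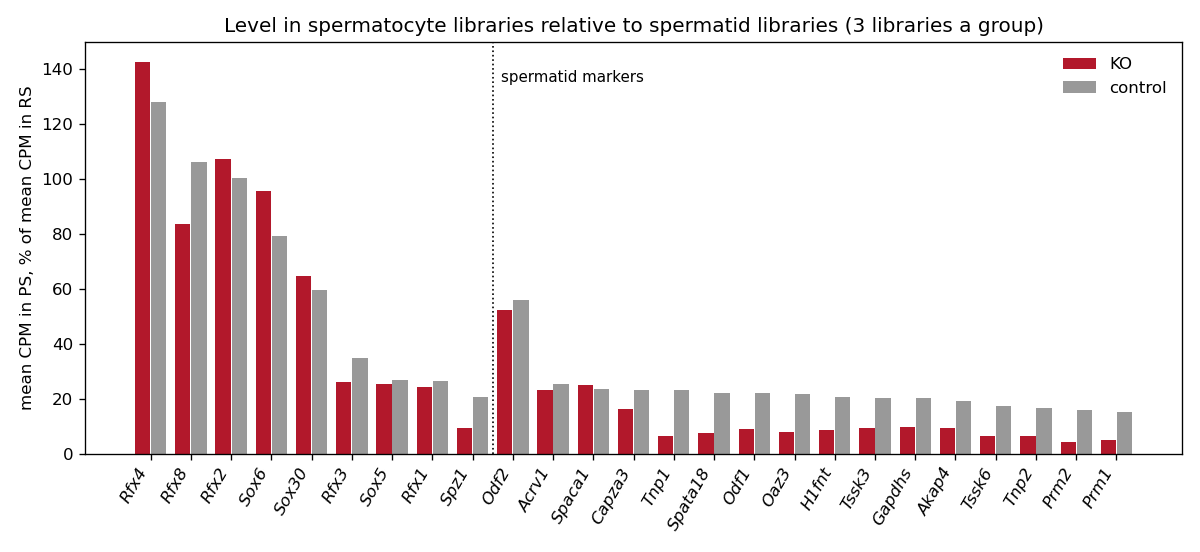
Mean CPM in PS as a percent of mean CPM in RS for the 9 genes and, right of the dotted line, the 16 spermatid markers, with a bar for KO and a bar for control (3 libraries a group). Spz1, at 9.25% in KO and 20.6% in control, is the lowest of the 9 genes, while Rfx4, at 142% in KO and 128% in control, is above its RS level.

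The interaction asked whether the KO effect differs between RS and PS. It was called for 0 of the 9 genes, where 0.0181% of all genes tested were called (edgeR). Of the 9, 2 had an unadjusted p under 0.05, 1 in each direction, and DESeq2 called 0. With the replicate block 2 of the 9 were called, where 7.75% of all genes were. Sox6 was 1 of them, with a KO fold change of -0.80 in RS and -0.23 in PS (interaction -0.53, adjusted p = 0.351 without the block and 0.0433 with it, edgeR). Spz1 was the other, with -0.57 in RS and -1.42 in PS (interaction 0.88 with an adjusted p = 0.300 without the block, and 0.85 with an adjusted p = 0.0266 with it, edgeR). For the other 7 genes the interaction ran from -0.40 for Rfx4 to 0.15 for Rfx3.

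Likeness over the 12 libraries was measured by Pearson's r of log2 CPM, as a description. The libraries share depth and 2 cell types, so that much of it is the difference between RS and PS. Rfx1 was most like 4933413J09Rik (r = 0.998), Foxj1 (r = 0.998), which encodes a regulator of motile cilia, and Arid3a (r = 0.996). Foxj1 averaged 168 ± 35.5 CPM in KO RS and 205 ± 23.7 CPM in control RS, and 40.7 ± 1.76 CPM in KO PS and 52.5 ± 7.01 CPM in control PS (SD, n = 3). Sox5 was most like Creb3l4, Stambpl1 and Ccer1 (r = 0.998, 0.998 and 0.997), and Spz1 most like 1700009N14Rik, Gm11780 and Gsg1, a germ cell gene (r = 0.9996, 0.999 and 0.998).

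Rfx3 was nearest to Fam46c, Pcdhgb2 and Fam78a (r = 0.993, 0.993 and 0.992). Sox30 was nearest to Desi1, Mipep and Dmrta2 (r = 0.985, 0.984 and 0.982), and Rfx4 to Mdh1b, Abhd16a and 4932414N04Rik (r = 0.975, 0.972 and 0.966). The genes with flatter patterns had lower values. Rfx2 was nearest to Dchs1, Gbf1 and Dnajc10 (r = 0.960, 0.943 and 0.933), Sox6 to Dbndd1, Dnaaf3 and Zfp317 (r = 0.935, 0.933 and 0.927), and Rfx8 to Epha7, Rnf14 and Clec4g (r = 0.914, 0.857 and 0.850).

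Relatives and partners of the 9 genes were then read in the same fits. Of 11 other RFX genes and partners, 7 were tested. In RS, where 18.7% of all genes were higher and 12.4% lower, 1 rose and 0 fell. This was Rfx7, at 34.6 ± 5.18 CPM in KO RS and 16.0 ± 1.55 CPM in control RS (log2 fold change 0.85, SE 0.175, adjusted p = 0.00866, edgeR). With the block 4 rose and 2 fell in RS, where 28.8% of all genes were higher and 26.1% lower. Foxj1 fell under the block only, at -0.53 in RS without it (adjusted p = 0.0813) and -0.56 with it (adjusted p = 0.00366, edgeR). In PS 0 of the 7 passed by DESeq2, or by edgeR without the block, and 1 had an unadjusted p under 0.05. With the block 1 rose and 0 fell in PS, where 10.6% of all genes were higher and 12.1% lower. It was Mybl1, a meiotic MYB factor gene, at 0.57 (adjusted p = 0.178 without the block and 0.00162 with it, edgeR).

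Of 17 other SOX genes, 10 were tested in RS and 11 in PS. In RS 4 rose, all of them low in level, and 2 fell, where 18.7% of all genes were higher and 12.4% lower. Sox11 was at 3.72 ± 0.449 CPM in KO RS and 0.834 ± 0.245 CPM in control RS (1.88, SE 0.346, adjusted p = 0.00610, edgeR), and Sox3, Sox12 and Sox13 rose by 1.81, 1.65 and 1.49. Sox17, known from endoderm and vessels, was at 12.9 ± 0.984 CPM in KO RS and 28.3 ± 4.27 CPM in control RS (-1.39, SE 0.191, adjusted p = 0.00304, edgeR). It was also the 1 gene of the list that fell in PS without the block, where 4.5% of all genes were lower, at 8.04 ± 3.69 CPM in KO PS and 25.0 ± 6.25 CPM in control PS (-1.65, SE 0.316, adjusted p = 0.0103, edgeR). With the block 3 of the list fell and 2 rose in PS, where 12.1% of all genes were lower and 10.6% higher. Sox1 and Sox10 were the other 2 lower (adjusted p = 0.00752 and 0.0486 with the block, edgeR). Both were low, at 1.62 and 0.874 CPM in KO PS and 4.08 and 1.89 CPM in control PS. Sox8 and Sox9 were higher (adjusted p = 0.0407 and 0.0202 with the block, edgeR). Sox9 is also 1 of the Sertoli markers, of which 12 of 14 tested were higher in PS with the block. The part of Sertoli cell RNA in the Sox8 and Sox9 values was not tested. Sox1 fell by 1.25 in RS, where it was also low in level, at 1.37 CPM in KO RS and 2.69 CPM in control RS. Its call was lost without replicate 3 or the remaining replicate of either RS group, and that of Sox13 without control RS replicate 1 or 3 or the remaining KO RS replicate (highest adjusted p = 0.0849 and 0.0937, edgeR).

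Of 20 tested regulators of spermatid transcription, 5 rose and 5 fell in RS, where 18.7% of all genes were higher and 12.4% lower. With the block 6 rose and 8 fell, where 28.8% were higher and 26.1% lower. Crem, the CREM activator of post-meiotic genes, was at 209 ± 24.3 CPM in KO RS and 305 ± 32.0 CPM in control RS (-0.81, SE 0.190, adjusted p = 0.0129, edgeR). Its call was lost without the remaining KO RS replicate (adjusted p = 0.0658, edgeR). Fhl5, which encodes the CREM coactivator ACT, was at 103 ± 20.4 CPM in KO RS and 172 ± 36.5 CPM in control RS (-1.02, SE 0.216, adjusted p = 0.00941, edgeR). Taf4b, of germ cell TFIID, rose to 49.3 ± 5.48 CPM in KO RS, against 20.4 ± 3.38 CPM in control RS (adjusted p = 0.00610, edgeR). Its partner Taf7l rose by 0.95 on the log2 scale, the CREB coactivator gene Crtc1 by 0.96 and the zinc finger gene Zfp148 by 1.01. The call for Zfp148 was lost without the remaining KO RS replicate (adjusted p = 0.0556, edgeR).

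In PS 1 of these 20 regulators rose and 3 fell, where 0.91% of all genes were higher and 4.5% lower. With the block 6 rose and 3 fell, where 10.6% were higher and 12.1% lower, so more of the list rose than fell under it. The 5 genes added were Mybl1, Tcfl5, Atf1, Crtc1 and Taf4b, at 0.35 to 0.63 on the log2 scale with the block (highest adjusted p = 0.0366, edgeR). Fhl5 was at 16.6 ± 5.01 CPM in KO PS and 38.1 ± 6.57 CPM in control PS (-1.18, SE 0.222, adjusted p = 0.00951, edgeR), and its call held in all fits without 1 library. Trim66, a corepressor gene of spermatids, was at -0.96, Kif17, which encodes the kinesin that moves ACT, at -0.69, and Taf7l at 0.85. Calls for all 3 were lost without replicate 1 or 3 of either PS group, and that for Taf7l also without the remaining KO PS replicate (highest adjusted p = 0.133, 0.176 and 0.162, edgeR).

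A list of 6 genes that published work ties to RFX or SOX factors held 4 that fell and 0 that rose in RS, where 12.4% of all genes were lower and 18.7% higher, and its median log2 fold change was -0.70. Catsper1, a sperm calcium channel gene, was at 125 ± 12.4 CPM in KO RS and 209 ± 28.3 CPM in control RS (-0.98, SE 0.182, adjusted p = 0.00611, edgeR). Spag16, of the axoneme's central pair, was at 117 ± 7.11 CPM in KO RS and 180.3 ± 3.96 CPM in control RS (-0.88, SE 0.170, adjusted p = 0.00704, edgeR). Spag6, also of the central pair, was at -0.76 and Gtf2a1l, a germ cell TFIIA subunit gene, at -0.64. Calls for both were lost without KO RS replicate 3, control RS replicate 3 or the remaining KO RS replicate, and that for Gtf2a1l also without the remaining control RS replicate (highest adjusted p = 0.0885 and 0.107, edgeR). Spag6 has the close copy Spag6l, and the counting could split their reads. In PS 1 of the 6 fell without the block, Catsper1, at 27.3 ± 7.80 CPM in KO PS and 56.8 ± 4.63 CPM in control PS (-1.04, SE 0.201, adjusted p = 0.0105, edgeR). Without KO PS replicate 3 it did not pass (adjusted p = 0.0551, edgeR). With the block Spag16 also fell in PS, at -0.41 (adjusted p = 0.0220, edgeR).

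Of 40 genes of cilium assembly, 5 fell and 0 rose in RS, with a median log2 fold change of -0.24. Over all genes 12.4% were lower, so the share of this list was near that of all genes. They were Bbs5, B9d1, Ift81, Ift43 and Ift57, at -0.77, -0.93, -0.65, -0.74 and -0.55, which encode proteins of the BBSome, the transition zone and intraflagellar transport. Each of the 5 calls was lost without the remaining KO RS replicate (highest adjusted p = 0.120, edgeR). Those for the Ift genes were also lost without the remaining control RS replicate, those for Ift81 and Ift57 without KO RS replicate 3, and those for Ift43 and Ift57 without control RS replicate 3. With the block 16 fell and 0 rose, where 26.1% of all genes were lower and 28.8% higher. With library size as the only scaling 2 fell and the median was 0.01. In PS 0 of the 40 passed by DESeq2, or by edgeR without the block. Before adjustment, 1 of them was higher and 1 lower at p under 0.05. With the block 2 rose and 3 fell in PS, where 10.6% of all genes were higher and 12.1% lower.

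**Figure D5:**
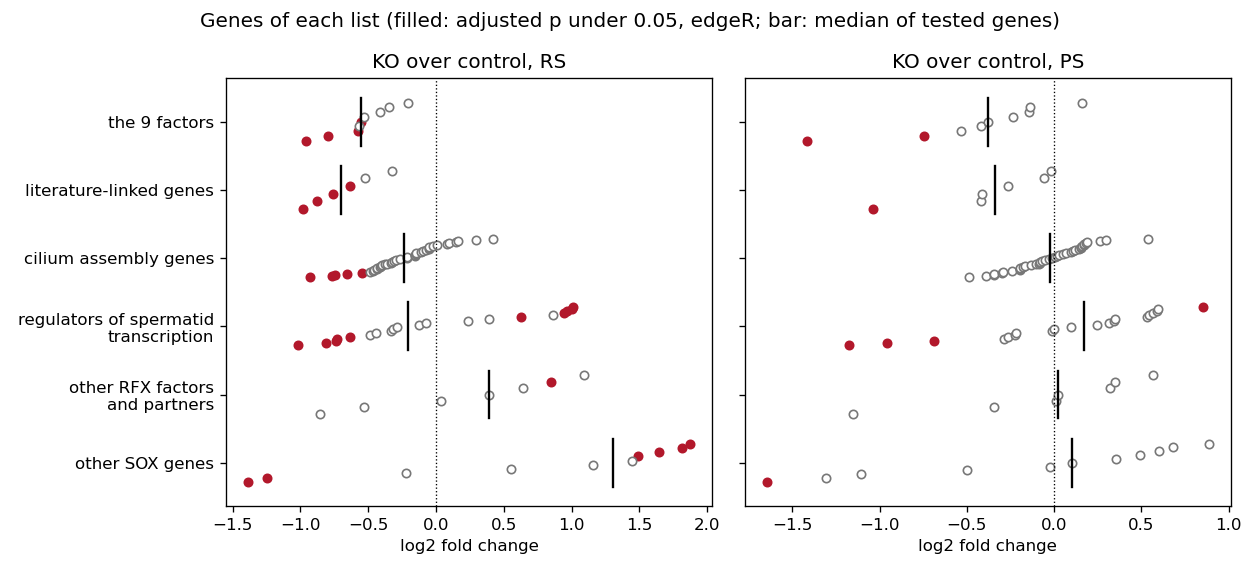
Log2 fold change of each tested gene in KO over control RS and KO over control PS, by list, with red points for an adjusted p under 0.05 (edgeR) and a bar at each list's median. The median of the 9 factors is -0.55 in RS and -0.38 in PS, that of the cilium assembly genes -0.24 and -0.02.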

How the data were processed

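Per the labels' protocols, TRIzol RNA was sequenced from stranded total RNA libraries. The authors counted reads per gene with HISAT2 2.1.0 and HTSeq on mm10, per the submitters' processing notes, and deposited the counts as 1 table per cell type. No source used here states the annotation or strand setting. The deposited tables also hold the authors' log2 fold changes and p-values, and 12 columns of normalized values that were not used. Counts were tested in edgeR 4.0.16 (R 4.3.3, quasi-likelihood, TMM scaling, filterByExpr, Benjamini-Hochberg adjustment over all genes tested, threshold 0.05). Each KO comparison used its 6 libraries, and the interaction and the step between cell types used all 12. SE is the log2 fold change over the root of the F statistic. The steps were tested on simulated data. CPM used library totals (11205732 to 17467583), where 3 counts, the floor, were 0.172 to 0.268 CPM. Likeness used log2 CPM with a prior count of 2.

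Alternatives were no filter, library size only, DESeq2 size factors, DESeq2 1.42.0, all 12 libraries in 1 fit, the replicate block, each library left out, and, added after the data were seen, the remaining replicate of every group left out. Within a cell type, deviations from group means correlated at 0.380 to 0.591 between libraries of 1 number and at -0.546 to -0.0151 between others. Across cell types the values were 0.191 to 0.616 and -0.561 to 0.248. Deviations of the 3 libraries of a group sum to 0, so negative values between different numbers follow in part from positive values within a number. Numbers were read as pairing the samples, replicates 1 and 3 by label and the rest by elimination. The main fits still used no block, because the labels do not say what a number shares. No 2 replicates agreed within sampling noise (lowest chi-square per gene 15.7). The labels name no animals, so p-values reflect sample-to-sample spread, which may be technical. Counting floors cover counting error only.

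The 9 genes, the lists and the motifs were chosen with earlier results of these data known. List genes named are those called in a KO comparison without the block, at most 6 a list and comparison, and for likeness the 3 genes with the highest r. Some genes called only with the block are named beyond that rule, among them Foxj1, Mybl1, Tcfl5, Atf1, Sox8, Sox9 and Sox10. Of the spermatid markers, Odf2 and Prm2 are named as the most abundant, and the others by no set rule.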

Additional observations from a re-analysis of the deposited data

How the results depend on the processing

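In PS, 826 of all genes passed, against 1257 with DESeq2, 3476 with the replicate block and 288 to 1592 without 1 library, and of the 9 factors 2 passed, against 4 with the block and 1 to 3 without 1 library. In RS, 4942 genes passed, against 8736 with the block, 1546 to 6391 without 1 library and 0 without the remaining replicates (edgeR, 4103 at an unadjusted p under 0.05). Of the 9 factors 4 passed in RS, against 2 with library size only, 8 with the block, 1 to 5 without 1 library and 0 without the remaining replicates (edgeR, 3 at an unadjusted p under 0.05). Among the fits without 1 library, counts of all genes moved by over 1.5 times without KO PS replicate 1 (304) or 3 (288), control PS replicate 3 (407) or its remaining replicate (1592), and in RS without KO replicate 3 (2947) or its remaining replicate (1546) and without control replicate 3 (2933) or its remaining replicate (3116). For the interaction, 3 genes passed, against 6 with no filter, 35 with library size only, 95 with DESeq2, 1285 with the block, 0 to 6 without 1 library and 0 without the remaining replicates (edgeR, 1018 at an unadjusted p under 0.05); of the 9 factors 0 passed (edgeR and DESeq2, 2 at an unadjusted p under 0.05), against 2 with the block. With library size only, all genes' median moved to 0.37 in place of 0.11 for the interaction and to -0.22 in place of -0.09 for control RS over control PS, and signs turned for Rfx2 in RS (0.035), for Rfx1 (0.12) and Sox5 (0.076) in the interaction, and for Rfx2 (-0.0055) and Rfx8 (-0.087) in control RS over control PS. None of these values with a turned sign passed. Without 1 library the interaction ran from -0.47 to 0.0089 for Rfx1, from -0.068 to 0.24 for Rfx3 and from -0.20 to 0.26 for Rfx8, and Rfx8 in control RS over control PS ran from -0.036 to 0.23. Without the remaining replicates the Rfx3 interaction was -0.0033. The cause of these changes was not tested. Apart from those named here and in the report, the replicate block changed no call among the 9 factors. The lowest count of the 9 factors in any library was 196 (Rfx3); counting error and spread between libraries were not separated.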
